A study of Mus musculus with 16 samples.

Results

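The 10 circadian clock genes Clock, Arntl, Per1, Per2, Per3, Cry2, Nr1d1, Nr1d2, Dbp and Tef were followed in mouse hamstring muscle. Every probe whose listed symbol equals one of these names was taken, whatever its signal, which gave 17 of 25697 probes, for 10 of 18097 gene symbols. RNA of whole muscle was measured on Illumina expression BeadChips in 4 groups of female mice, 2 days after surgery. SCI+CDTX mice had a spinal cord injury (SCI) in the thoracic spine and an injection of cardiotoxin (CDTX), a venom peptide that injures muscle fibres, into the muscle. SCI+Saline mice had the same spinal injury with saline injected into the muscle. Sham+CDTX and Sham+Saline mice had a sham operation with CDTX or saline. According to the series design, neurogenic heterotopic ossification, the growth of bone inside muscle after damage to the nervous system, arises in SCI+CDTX alone. Each group has 4 arrays, but SCI+CDTX replicate 2 is marked in the labels as excluded by the authors, so the comparisons rest on 3 arrays of that group and 4 of each other group. Strain, age and the hour at which muscle was taken are not given in the sources used here.

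The clock is a feedback loop of transcription factors. CLOCK and BMAL1, the product of Arntl, bind E-box sequences and switch on the Per and Cry genes, whose proteins return to the nucleus and repress CLOCK and BMAL1. The nuclear receptors REV-ERBα (Nr1d1) and REV-ERBβ (Nr1d2) repress Arntl in a further loop, and the PAR bZIP factors DBP and TEF pass the rhythm on to output genes. Skeletal muscle runs this clock, so the transcripts rise and fall over the day there, and Per1 and Per2 are also known as genes that respond quickly to glucocorticoids and other signals.

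Mean raw intensity was 230.5 to 277 on the 4 Sham+Saline arrays and 319.9 to 373.1 on the other 12. All SCI arrays lay on 1 slide and all sham arrays on another, so slide and surgery cannot be told apart in any comparison of SCI with sham, whereas each CDTX effect lies within a slide. Across the array, probes of the same gene disagreed in a shared way on 5 arrays: a probe difference score was 0.32 to 0.4 on the 4 Sham+CDTX arrays and on SCI+CDTX 2, and -0.25 to -0.04 on the other 11. Its first component held 41.5% of the variance of such differences over 1545 genes. The score thus largely coincides with the Sham+CDTX group, apart from SCI+CDTX 2. In comparisons with Sham+CDTX and in the interaction, a fit with the score as a covariate rests mainly on SCI+CDTX 2. All 8 muscle fibre markers were detected on all arrays, with a combined level (log2 of their mean normalized intensity) of 13.75 to 13.95. The brightest markers set this level, so it does not show that fibre RNA was equal. In limma, Pygm, the dimmest, was lower with CDTX in sham mice (log2 fold change -1.33, adjusted p 0.000303) and Myh4 was higher (0.35, 0.0363). Actn3 was lower for SCI in CDTX muscle (-0.47, adjusted p 0.0467), and no other marker was called. Whether the mice or RNA preparations behind replicate numbers were independent is not stated, so each p-value measures the spread between these samples only.

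Of the 17 clock probes, 15 were detected (detection p under 0.05) on at least 3 arrays and entered the fit with 14763 probes in all, and 11 of them were detected on all 15 arrays. Levels below are log2 normalized intensities, in which a difference of 1 is a doubling, and a probe was called at a limma adjusted p under 0.05 over all 14763 probes. With saline injected, SCI muscle had higher Per1, Per2, Dbp, Cry2 and Nr1d2 than sham muscle and lower Arntl: 7 of 15 clock probes were higher and 1 was lower, against 14.8% and 14.6% of all probes. Nr1d2 was called there on its dim probe ILMN_2602387 alone, and its brighter probe ILMN_2798993 was not called (0.41, adjusted p 0.204). In sham mice, CDTX muscle had higher Per1 and Per2, on 4 probes, and lower Arntl, Tef, Clock and Nr1d1, on 5 probes, against 23.1% and 25.8% of all probes. In SCI mice, CDTX muscle had 0 clock probes higher and 7 lower (Arntl, Cry2, Nr1d1, Per2, Tef and both Nr1d2 probes), against 20.4% and 22.5% of all probes. Between the CDTX groups, SCI muscle had 0 probes higher and 2 lower, for Nr1d1 and Nr1d2 ILMN_2798993, against 14.9% in each direction. At an unadjusted p under 0.05 in limma, the only tool run, these counts of probes higher were 0 and 1.

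A probe can pass the detection filter only through a group in which it is high, so the 11 probes detected on all arrays are given as well. Among them 5 were higher and 1 lower in SCI+Saline than in Sham+Saline, and 3 were higher and 5 lower in Sham+CDTX than in Sham+Saline. In SCI+CDTX, 6 of the 11 were lower than in SCI+Saline and 2 were lower than in Sham+CDTX. The share called among all probes detected on all arrays was not computed. A stricter filter, a detection p under 0.01 on all arrays of some group, kept 11541 probes. Of these, 35.9%, 58.6%, 53.8% and 39.1% were called in either direction, in the same order of comparisons. No count of the 11 is therefore read as unusual. The median log2 fold change of the 15 kept probes was 0.41 for SCI in saline muscle (all probes -0.01), 0.23 for CDTX in sham mice (-0.04), -0.59 for CDTX in SCI mice (-0.05) and 0.16 for SCI in CDTX muscle (0.01). The SCI effect in saline muscle and the CDTX effect in sham mice share the Sham+Saline arrays, and so they are given side by side below and not compared. Scaling arrays by their medians in place of quantile normalization moved the median of all probes to 0.17 for SCI in saline muscle and to 0.32 for CDTX in sham mice, so higher and lower are meant relative to the median probe. With median scaling, the CDTX effect in sham mice had 8 clock probes higher and 2 lower, and the SCI effect in saline muscle 9 higher and 0 lower (0 lower at an unadjusted p under 0.05). Of all probes, 53.4% were called for CDTX in sham mice in that setting, and 85.1% of these calls were higher. For SCI in saline muscle 34.8% of all probes were called, and 86.4% of these calls were higher.

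**Figure D1:**
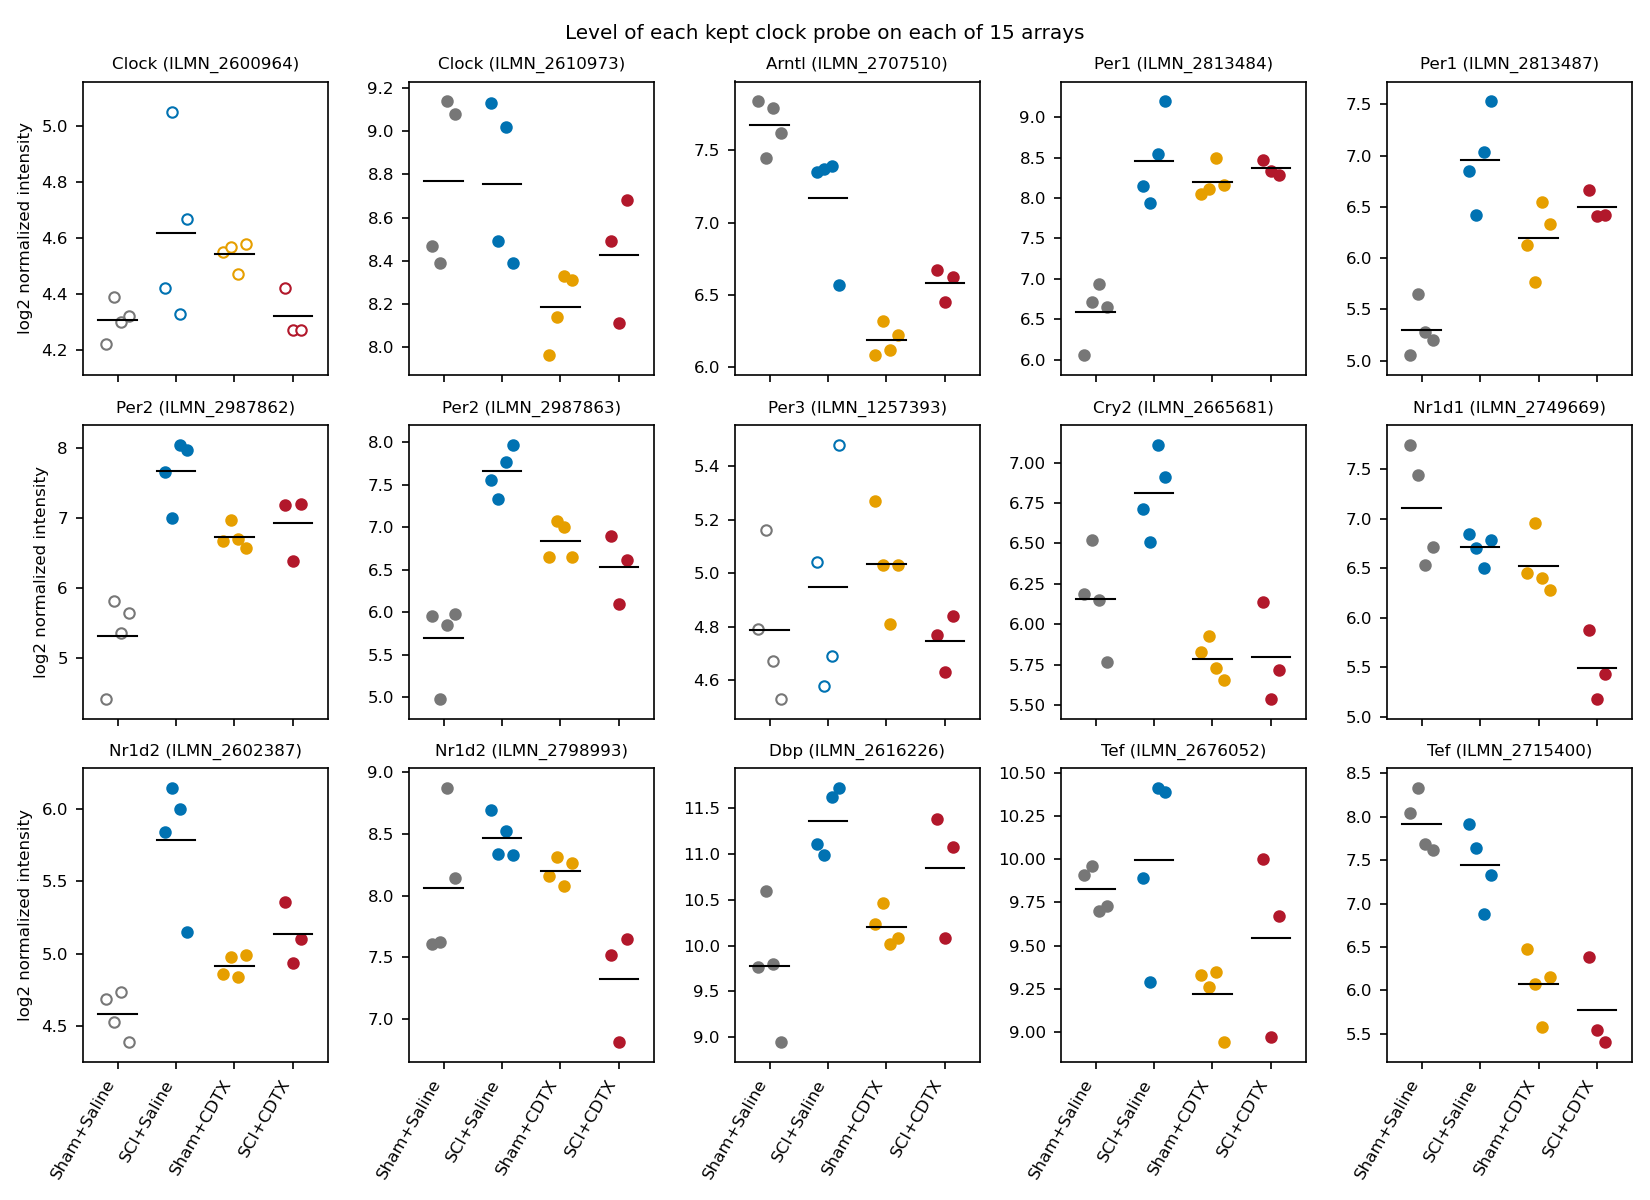
Log2 normalized intensity (vertical axis, a separate range in each panel) of the 15 kept clock probes on the 15 arrays, by group; each point is 1 array, the line is the group mean, and points are open where the probe was not detected on every array of that group. Both Per1 and both Per2 probes are lowest on the 4 Sham+Saline arrays, and Nr1d1 is lowest on the 3 SCI+CDTX arrays.

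The activators come first. Clock encodes the CLOCK protein, and its probe ILMN_2610973 (chromosome 5, band 5qC3.3) was detected on all arrays. It measured 8.47, 8.39, 9.14 and 9.08 in Sham+Saline, 9.13, 8.49, 9.02 and 8.39 in SCI+Saline, 7.96, 8.14, 8.33 and 8.31 in the Sham+CDTX group, and 8.49, 8.11 and 8.68 in SCI+CDTX. The Sham+CDTX arrays all lay below the arrays of both saline groups, and SCI+CDTX overlapped with every other group. The CDTX effect in sham mice was a log2 fold change of -0.59 (SE 0.2, adjusted p 0.0236). This call was lost without Sham+CDTX 1 (-0.51, adjusted p 0.0723), Sham+Saline 3 (-0.46, 0.0836) or Sham+Saline 4 (-0.48, 0.0759) and without the detection filter (-0.59, 0.0544), and the value was 0.1 with median scaling. The other Clock probes were dim. ILMN_2600964 was detected on 5 of 16 arrays and was called in no comparison, with levels of 4.22 to 5.05. Its CDTX effect in SCI mice, -0.3, was called with median scaling (-0.35, adjusted p 0.0495), and without SCI+Saline 3 its SCI effect in saline muscle (0.41, adjusted p 0.0489) and its interaction (-0.63, adjusted p 0.0358) were called. ILMN_2589603 was detected on 0 of 16 arrays and was not tested.

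Arntl, which encodes BMAL1, the partner of CLOCK, lay lowest where CDTX was injected. Its probe ILMN_2707510 (chromosome 7, band 7qF1) measured 7.84, 7.45, 7.79 and 7.62 in Sham+Saline and 7.35, 7.37, 7.39 and 6.57 in SCI+Saline. It measured 6.08, 6.32, 6.12 and 6.22 in Sham+CDTX, and 6.67, 6.45 and 6.62 in SCI+CDTX. The 4 groups were ordered Sham+Saline, SCI+Saline, SCI+CDTX, Sham+CDTX from high to low, and SCI+Saline overlapped with SCI+CDTX through SCI+Saline 4 alone. CDTX lowered the level by 1.49 log2 units in sham mice (fold 0.355, SE 0.17, adjusted p 9.14e-07), and this was called under all 24 alternatives, at -2.12 to -0.69. In SCI mice the CDTX effect was -0.59 (SE 0.18, adjusted p 0.0141), or -0.52 (adjusted p 0.0668) without SCI+CDTX 3 -0.44 (adjusted p 0.0794) with all 16 arrays and -0.25 (adjusted p 0.308) with median scaling. The CDTX effects in the 2 kinds of mice differed by 0.91 (SE 0.25, adjusted p 0.0124), which was lost with median scaling. The SCI effect in saline muscle was -0.51 (SE 0.17, adjusted p 0.0289), and -0.31 (adjusted p 0.102) without SCI+Saline 4. It was also not called without Sham+Saline 1 (-0.46, adjusted p 0.0772) or Sham+Saline 3 (-0.47, adjusted p 0.0676), with all 16 arrays (-0.51, 0.058), with the saline groups alone (-0.51, 0.0973) or with median scaling (-0.09, 0.759). In CDTX muscle SCI and sham differed by 0.4 (SE 0.18, adjusted p 0.116), which was called without SCI+Saline 4 (0.4, adjusted p 0.0366).

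Per1 encodes a repressor of CLOCK and BMAL1 and was low in Sham+Saline muscle alone. Its probe ILMN_2813484 (chromosome 11, band 11qB3, from base 4341 of its transcript) measured 6.05, 6.71, 6.94 and 6.65 in Sham+Saline. It measured 8.15, 7.94, 8.54 and 9.2 in SCI+Saline, 8.05, 8.11, 8.5 and 8.16 in the Sham+CDTX group, and 8.47, 8.34 and 8.29 in SCI+CDTX. No array of the other 3 groups came down to the range of Sham+Saline. The SCI effect in saline muscle was 1.87 (3.66-fold, SE 0.23, adjusted p 6.1e-06), and the CDTX effect in sham mice was 1.62 (3.07-fold, SE 0.23, adjusted p 1.03e-05). The other probe, ILMN_2813487, starts 60 bases upstream in the same transcript and gave 1.66 (SE 0.21, adjusted p 8.9e-06) and 0.9 (SE 0.21, adjusted p 0.00144). Its lowest Sham+Saline array was at 5.05 and its highest at 5.65, and the lowest array of any other group, Sham+CDTX 2, was at 5.77. The levels of both probes ran Sham+Saline, Sham+CDTX, SCI+CDTX, SCI+Saline from low to high, but the 3 upper groups were not separated. For ILMN_2813484, SCI+CDTX minus SCI+Saline was -0.09 (95% interval -0.61 to 0.42), and SCI+CDTX minus Sham+CDTX was 0.16 (-0.35 to 0.67). For ILMN_2813487 these were -0.46 (-0.93 to 0.01) and 0.3 (-0.17 to 0.77), and the first of these was called without SCI+Saline 2 (-0.64, adjusted p 0.0255).

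Per2 encodes a related repressor and had the largest fitted SCI effect in saline muscle of the 10 genes. Its probe ILMN_2987862 (chromosome 1, band 1qD) measured 4.42, 5.82, 5.36 and 5.64 in Sham+Saline, where 3 of 4 arrays detected it, and 7.65, 6.99, 8.04 and 7.96 in SCI+Saline. It measured 6.67, 6.97, 6.7 and 6.57 in Sham+CDTX, and 7.18, 6.39 and 7.2 in SCI+CDTX. The Sham+Saline arrays were again all below the others. With saline the SCI effect was 2.35 (5.11-fold, SE 0.27, adjusted p 3.82e-06), and the CDTX effect in sham mice was 1.42 (2.68-fold, SE 0.27, adjusted p 0.000275). ILMN_2987863, which starts 98 bases upstream of that probe, gave 1.97 (SE 0.22, adjusted p 2.57e-06) and 1.15 (SE 0.22, adjusted p 0.000268). On this probe SCI+CDTX lay at 6.9, 6.1 and 6.61 and SCI+Saline at 7.56, 7.33, 7.77 and 7.97, with no overlap. Its CDTX effect in SCI mice was thus lower by 1.12 log2 units (fold 0.46, SE 0.24, adjusted p 0.000945), a call kept under all 24 alternatives. ILMN_2987862 gave -0.74 there (SE 0.3, adjusted p 0.0516), which was called without SCI+CDTX 1 (-0.86, adjusted p 0.0496), SCI+Saline 2 (-0.95, 0.0144), Sham+Saline 1 (-0.74, 0.0189) or Sham+Saline 2 (-0.74, 0.0466). A Per2 probe further upstream, ILMN_1258523, was detected on 0 of 16 arrays.

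The 4 Per1 and Per2 calls for SCI in saline muscle were kept under all 23 alternatives, with ranges of 1.22 to 2.39 and 0.71 to 1.84 for Per1 and of 1.13 to 2.58 and 1 to 2.27 for Per2. The CDTX effect in sham mice was not kept in every alternative. In a fit of all 16 arrays with the probe difference score as a covariate, only ILMN_2813484 of these 4 probes remained called, and the other values were 0.75 for Per1 (adjusted p 0.174) and 0.68 and 0.15 for Per2 (adjusted p 0.398 and 0.838). Every Sham+CDTX array has a higher score than every Sham+Saline array, so score and CDTX largely coincide in that comparison.

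The canonical E-box that CLOCK and BMAL1 bind was searched for near the annotated starts and found in windows of Per1 and Tef. Windows of 300 bases, from 250 before to 50 after an annotated start, were taken from RefSeq (GRCm38.p6) for 9 of the 10 genes (Per2 has no window), 14 windows in all, and searched on both strands. The letters CACGTG, the same on both strands, occur in 1 of 2 Per1 windows and in both Tef windows, and in 7.15% of all 32851 windows of that length. The 3 stretches shown are those in which CACGTG was found, whatever the levels of the genes. Capitals mark CACGTG, with 60 bases on either side. The Per1 stretch is chr11:69098723-69098848 on the plus strand, and its E-box begins 166 bases before the start. The Tef stretches are chr15:81802486-81802611 and chr15:81811216-81811341 on the plus strand, with E-boxes that begin 127 and 138 bases before the start.
Per1: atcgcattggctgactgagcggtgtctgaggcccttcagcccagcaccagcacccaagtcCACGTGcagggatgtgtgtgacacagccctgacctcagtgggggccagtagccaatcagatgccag
Tef, upstream start: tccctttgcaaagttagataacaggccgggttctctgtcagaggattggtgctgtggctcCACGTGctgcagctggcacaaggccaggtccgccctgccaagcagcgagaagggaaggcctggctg
Tef, downstream start: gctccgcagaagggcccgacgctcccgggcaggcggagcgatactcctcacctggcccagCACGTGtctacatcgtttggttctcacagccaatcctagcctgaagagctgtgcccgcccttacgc
The related letters CACGTT occur in the Nr1d1 and Cry2 windows and in 4.68% of all windows. The D-box letters TTATGTAA, which PAR bZIP factors bind, occur at 2 places in the Per3 window and in 0.938% of all windows. AGGTCA, the core that REV-ERB receptors bind, occurs in 1 window each of Per1, Arntl, Clock and Nr1d2 and in 16.3% of all windows. Such matches describe the sequence and do not show binding.

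Per3 encodes the third PERIOD protein, and its probe ILMN_1257393 was near the limit of detection. It was detected on 2 of 4 Sham+Saline arrays, 2 of 4 SCI+Saline arrays, 4 of 4 Sham+CDTX arrays and 3 of 3 SCI+CDTX arrays, at levels of 4.53 to 5.48. The groups overlapped, and no comparison was called, although with median scaling the CDTX effect in sham mice, 0.25, was called at 0.52 (adjusted p 0.0156). Its 95% interval for SCI in saline muscle was -0.23 to 0.55, so a change of the size measured for Per1 and Per2 lies outside it, although the offset used for dim probes narrows such intervals.

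Cry2 encodes a cryptochrome, which represses CLOCK and BMAL1 together with the PERIOD proteins, and was highest in SCI+Saline. Its probe ILMN_2665681 (chromosome 2, band 2qE1) measured 6.19, 6.52, 6.15 and 5.77 in Sham+Saline and 6.71, 6.51, 7.11 and 6.91 in SCI+Saline. It measured 5.83, 5.93, 5.73 and 5.66 in Sham+CDTX, and 6.14, 5.54 and 5.72 in SCI+CDTX. SCI+Saline lay above both CDTX groups on every array and overlapped with Sham+Saline by 1 array. It was higher in SCI+Saline than in Sham+Saline by 0.65 (1.57-fold, SE 0.17, adjusted p 0.00854), called under all 23 alternatives, none of which separates slide from surgery. The CDTX effect in SCI mice was -1.01 (fold 0.497, SE 0.19, adjusted p 0.000309), called under all 24. In sham mice the CDTX effect was -0.37 (SE 0.17, adjusted p 0.0873). It was called at -0.5 without Sham+Saline 4 (adjusted p 0.0252), and at -1.12 in the score fit (adjusted p 0.0275), and its sign turned to 0.4 with median scaling (adjusted p 0.0757). The CDTX groups differed by 0.01 (95% interval -0.38 to 0.41).

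Nr1d1 encodes REV-ERBα, the repressor of Arntl, and was lowest on the 3 SCI+CDTX arrays compared. Its probe ILMN_2749669 (band 11qD) measured 7.75, 7.44, 6.53 and 6.72 in Sham+Saline and 6.85, 6.71, 6.5 and 6.79 in SCI+Saline. It measured 6.45, 6.96, 6.4 and 6.28 in Sham+CDTX, and 5.88, 5.18 and 5.43 in SCI+CDTX. All 3 SCI+CDTX arrays lay below the other 12. SCI+CDTX was lower than SCI+Saline by a log2 fold change of -1.21 (fold 0.431, SE 0.25, adjusted p 0.000761), called under all 24 alternatives. It was lower than Sham+CDTX by -1.03 (fold 0.491, SE 0.25, adjusted p 0.00462). Adding SCI+CDTX 2 weakened the second value to -0.76 (adjusted p 0.0715), and the score fit gave 0.02 (adjusted p 0.989). The CDTX effect in sham mice, -0.59 (SE 0.23, adjusted p 0.0439), was close to the threshold. It was not called in 13 of 24 alternatives, among them the fits without Sham+Saline 1 (-0.38, adjusted p 0.181), Sham+Saline 2 (-0.48, 0.131), Sham+CDTX 1 (-0.56, 0.0881), Sham+CDTX 3 (-0.55, 0.0966), Sham+CDTX 4 (-0.51, 0.117), SCI+CDTX 4 (-0.59, 0.0534) or SCI+Saline 2 (-0.59, 0.0504). With median scaling it was 0.25 (adjusted p 0.361).

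Nr1d2 encodes REV-ERBβ, and its probes differed from each other. ILMN_2798993 (chromosome 14, band 14qA2, from base 4256) measured 7.61, 7.62, 8.87 and 8.14 in Sham+Saline and 8.69, 8.34, 8.52 and 8.33 in SCI+Saline. It measured 8.16, 8.31, 8.08 and 8.26 in Sham+CDTX, and 7.52, 6.81 and 7.65 in SCI+CDTX. SCI+CDTX lay below SCI+Saline and Sham+CDTX on every array and overlapped with Sham+Saline. The CDTX effect in SCI mice was -1.14 (fold 0.453, SE 0.25, adjusted p 0.00122) and the SCI effect in CDTX muscle was -0.87 (fold 0.546, SE 0.25, adjusted p 0.0128). With all 16 arrays neither was called, at -0.69 (adjusted p 0.132) and -0.43 (adjusted p 0.456). In CDTX muscle the SCI effect was -0.62 without SCI+CDTX 3 (adjusted p 0.108) and 1.02 in the score fit (adjusted p 0.159). In saline muscle the SCI effect was 0.41 (SE 0.23, adjusted p 0.204), or 0.68 without Sham+Saline 3 (adjusted p 0.014) and 0.92 with median scaling (adjusted p 0.0124). With CDTX in sham mice the difference was 0.14 (SE 0.23, adjusted p 0.646), and it was called in opposite directions by 2 alternatives, higher with median scaling (0.86, adjusted p 0.012) and lower in the score fit (-1.61, adjusted p 0.00831).

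The other Nr1d2 probe, ILMN_2602387 (from base 3783), was detected on 0 of 4 Sham+Saline arrays and on all others that were compared. It measured 5.84, 6.14, 6 and 5.15 in SCI+Saline, 4.86, 4.98, 4.84 and 4.99 in the Sham+CDTX group, and 5.36, 4.94 and 5.1 in SCI+CDTX, with 4.39 to 4.74 in Sham+Saline. SCI+Saline stood above Sham+Saline on every array. With the lowest detected signal standing in for Sham+Saline, the mean of SCI+Saline was 2-fold that signal. This is a point estimate that leaves out the spread between arrays. The fitted value was 1.19 (SE 0.18, 95% interval 0.82 to 1.57, adjusted p 5.86e-05). It was called under all 23 alternatives, at 0.35 to 1.4. The CDTX effect in SCI mice was -0.65 (SE 0.19, adjusted p 0.0106), and -0.55 without SCI+CDTX 3 (adjusted p 0.0631). It was also lost with all 16 arrays (-0.38, adjusted p 0.23) and with median scaling (-0.33, adjusted p 0.138). In sham mice CDTX gave 0.33 (adjusted p 0.142), or 0.47 with median scaling (adjusted p 0.0216) and -0.77 in the score fit (adjusted p 0.0753). In CDTX muscle the SCI effect was 0.22 (SE 0.19, adjusted p 0.455), of the opposite sign to the first probe.

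Dbp encodes the PAR bZIP factor DBP, a direct target of CLOCK and BMAL1, and had its highest mean in SCI+Saline. Its probe ILMN_2616226 (chromosome 7, band 7qB4) measured 9.77, 10.6, 9.8 and 8.94 in Sham+Saline and 11.11, 10.99, 11.62 and 11.72 in SCI+Saline. It measured 10.23, 10.47, 10.02 and 10.08 in Sham+CDTX, and 11.38, 10.08 and 11.08 in SCI+CDTX. The saline groups did not overlap, and SCI+CDTX spanned both. In saline muscle the SCI effect was 1.58 (3-fold, SE 0.3, adjusted p 0.000497), called under all 23 alternatives at 1.3 to 2.2. No other comparison of Dbp was called in the quantile-normalized fit. With median scaling Dbp was called for CDTX in sham mice (0.88, adjusted p 0.0107, against 0.42) and for CDTX in SCI mice (-0.76, adjusted p 0.0448, against -0.51). The SCI effect in CDTX muscle was 0.65 (95% interval -0.02 to 1.32), and 1.04 without SCI+CDTX 3 (adjusted p 0.0267).

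Tef encodes another PAR bZIP factor, and its 2 probes start far apart along their listed transcripts. ILMN_2715400 (chromosome 15, band 15qE1), which starts at base 19 of its transcript, measured 8.04, 8.33, 7.69 and 7.62 in Sham+Saline and 7.92, 7.64, 6.88 and 7.33 in SCI+Saline. It measured 6.48, 6.07, 5.58 and 6.16 in Sham+CDTX, and 6.39, 5.54 and 5.4 in SCI+CDTX. Every CDTX array lay below every saline array. The CDTX effect was -1.85 in sham mice (fold 0.278, SE 0.25, adjusted p 6.89e-06) and -1.67 in SCI mice (fold 0.315, SE 0.27, adjusted p 8.39e-05), both called under all 24 alternatives. The difference between these effects was 0.18 (95% interval -0.59 to 0.95).

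The other Tef probe, ILMN_2676052, starts at base 4126 and moved less. It measured 9.91, 9.96, 9.7 and 9.73 in Sham+Saline, 9.89, 9.29, 10.41 and 10.39 in SCI+Saline, 9.33, 9.26, 9.35 and 8.94 in the Sham+CDTX group, and 10, 8.97 and 9.67 in SCI+CDTX. Only the sham groups were apart on every array. Its CDTX effect was -0.61 in sham mice (SE 0.23, adjusted p 0.0358) and -0.45 in SCI mice (SE 0.25, adjusted p 0.162). The sham value was lost without Sham+CDTX 2 (-0.63, adjusted p 0.0575), Sham+CDTX 4 (-0.52, 0.107), Sham+Saline 1 (-0.58, 0.0739) or Sham+Saline 2 (-0.56, 0.0814). It was also lost with median scaling (-0.08, adjusted p 0.795), in the score fit (-0.43, 0.504), without background correction (-0.54, 0.0547) and without the detection filter (-0.61, 0.0883). In SCI mice the CDTX effect was called without SCI+Saline 2 (-0.67, adjusted p 0.021), and the SCI effect in saline muscle, 0.17 (adjusted p 0.646), with median scaling (0.67, adjusted p 0.0381). Within each array the second probe minus the first was 1.91 ± 0.21 in Sham+Saline and 3.15 ± 0.45 in Sham+CDTX (SD, n = 4 each), a difference of 1.24 (exact two-sided permutation p 0.0286, the smallest that 4 arrays against 4 allow). Adjusted over 4 comparisons this is 0.114, the lowest value that 1 complete separation can reach, so the adjusted p says nothing about this difference. In SCI mice it was 2.55 ± 0.89 with saline (n = 4) and 3.77 ± 0.44 with CDTX (n = 3), a difference of 1.22 (exact permutation p 0.114, adjusted 0.191). Probes of the same gene disagreed in a shared way on the Sham+CDTX arrays (score 0.35 to 0.4, against -0.2 to -0.1 in Sham+Saline). The difference between the Tef probes in sham mice was not separated from this and is not read as particular to Tef.

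**Figure D2:**
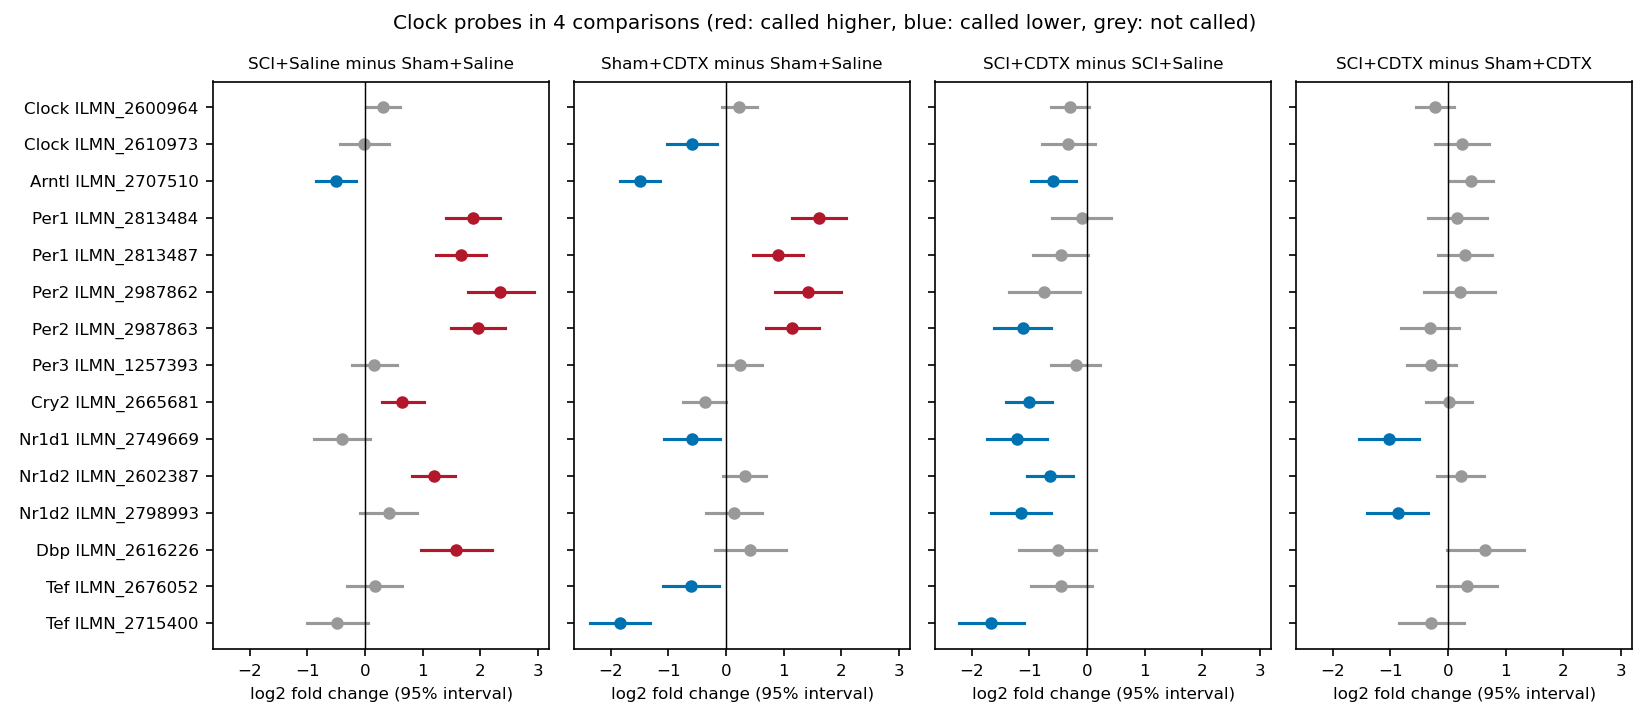
Log2 fold change (points) with 95% interval (bars) of the 15 kept clock probes in 4 comparisons, each named above its panel. Per1 and Per2 are called higher in both comparisons with Sham+Saline, and in both comparisons of SCI+CDTX, 0 probes are called higher and 7 or 2 are called lower.

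Whether CDTX acted alike in SCI and sham mice was tested with the interaction, the CDTX effect in SCI mice minus that in sham mice. It was called for 7 of 15 clock probes, 1 higher and 6 lower, against 12% and 11.6% of all probes, and its median was -0.64 over the 15 probes and -0.01 over all. Both Per1 probes (-1.36 and -1.71), both Per2 probes (-2.16 and -2.27) and both Nr1d2 probes (-1.28 and -0.97) had lower values in SCI mice, and Arntl a higher value (0.91). The Per2 values carried SEs of 0.4 and 0.33 and adjusted p of 0.000778 and 9.46e-05, and the Per1 values SEs of 0.31 and 0.33 and adjusted p of 0.00342 and 0.00112. All 4 Per1 and Per2 probes were called higher with CDTX in sham mice. In SCI mice, whose saline group was high, 1 of the 4 was called lower and the others were not called. Cry2 (-0.64, adjusted p 0.08), Dbp (-0.94, adjusted p 0.132) and Nr1d1 (-0.63, adjusted p 0.207) were not called. Without 1 array Cry2 was called at -0.81 (without SCI+CDTX 1, adjusted p 0.0347) or -0.76 (without Sham+Saline 2, adjusted p 0.038), and Dbp at -1.2 (without Sham+Saline 2, adjusted p 0.0363). With median scaling 9 clock probes were called, all lower: Cry2 (-1.06, adjusted p 0.00586), Dbp (-1.64, 0.00455) and Nr1d1 (-1.13, 0.0122) were among them, and Arntl was not called (0.44, adjusted p 0.204). The median of all probes was -0.24 in that setting, where 32.1% of all probes were called and 17.7% of all calls were higher.

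The interaction calls also changed with the probe difference score and with SCI+CDTX 2. In the fit with that score over 16 arrays, 1 clock probe was called, Arntl, and the 4 Per1 and Per2 values were -1.13, -1.42, -1.22 and -1.09 with adjusted p of 0.17 to 0.372. The Nr1d2 values changed sign in that fit, to 0.73 and 0.27. In the same fit the share of all probes called fell as well, to 0.695%. Score and Sham+CDTX group largely coincide, and SCI+CDTX 2, which the authors excluded, is the main array that separates them. This fit therefore cannot decide whether the interaction calls hold. With all 16 arrays and no score, 5 clock probes were called, 1 higher and 4 lower, and the Nr1d2 values of -0.83 and -0.72 were not called. The array left out, SCI+CDTX 2, stood apart on many clock probes. When all 16 arrays were normalized together it lay above the other SCI+CDTX arrays on every kept probe of Arntl, Cry2, Nr1d1, Nr1d2, Per1, Per2 and Per3 and on Clock ILMN_2610973. It was at 9.16 for Nr1d2 ILMN_2798993 (6.85 to 7.69 on the other SCI+CDTX arrays), at 8.09 for Per2 ILMN_2987862 (6.43 to 7.24), at 6.85 for Cry2 (5.58 to 6.18) and at 7.21 for Arntl (6.49 to 6.71). For Nr1d1 it was at 6.62 (5.22 to 5.92 on the other 3), which is inside the Sham+CDTX range of 6.32 to 7. Its Dbp level, 10.55, lay inside the range of the other 3 (10.11 to 11.4).

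**Figure D3:**
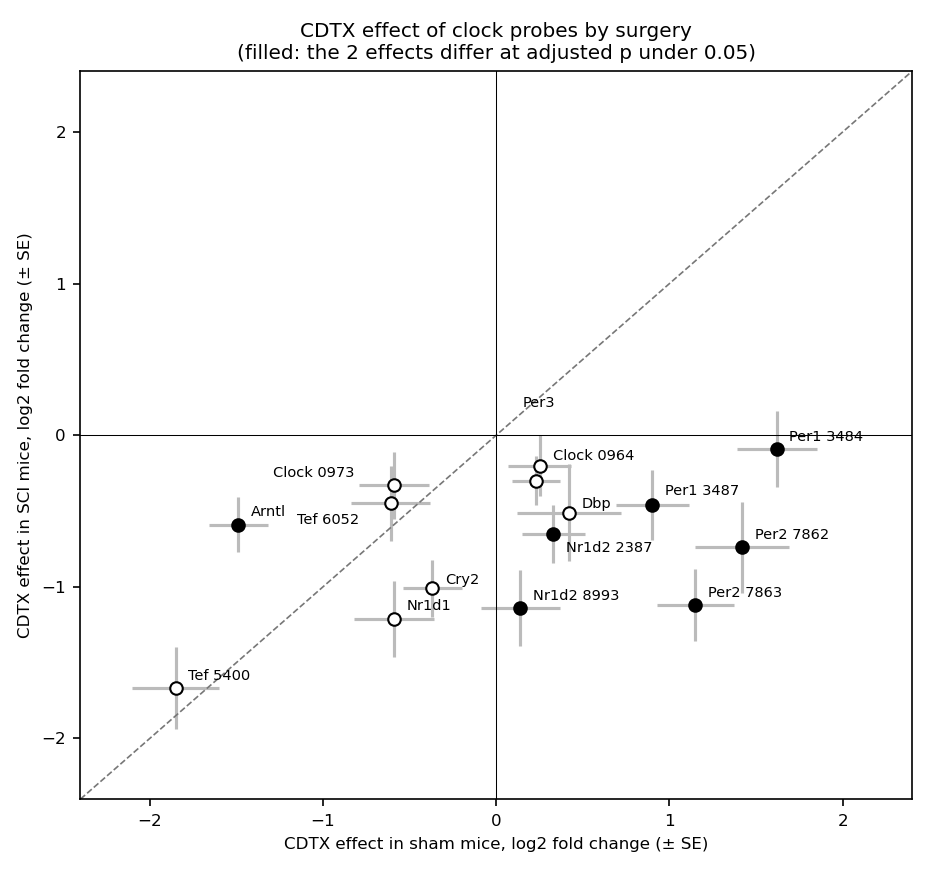
CDTX effect in sham mice (horizontal) against the CDTX effect in SCI mice (vertical), as log2 fold changes with SE bars, for the 15 kept clock probes; numbers after a name are the last digits of the probe, the dashed line marks equal effects, and filled points are called in the interaction. Per1 and Per2 lie to the right at 0.9 to 1.62 in sham mice and at or below 0 in SCI mice, and Tef ILMN_2715400 lies near the line.

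The number of clock calls depended on the processing to different degrees. All 7 clock probes called higher for SCI in saline muscle were called in each of the 23 alternatives. For the CDTX effect in SCI mice, 4 clock probes in place of 7 were called with all 16 arrays. For the SCI effect in CDTX muscle, 0 clock probes were called with all 16 arrays in limma (1 higher and 1 lower at an unadjusted p under 0.05). The score fit called 2, Arntl at 1.06 and Nr1d2 ILMN_2602387 at 1.41, and both were higher.

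**Figure D4:**
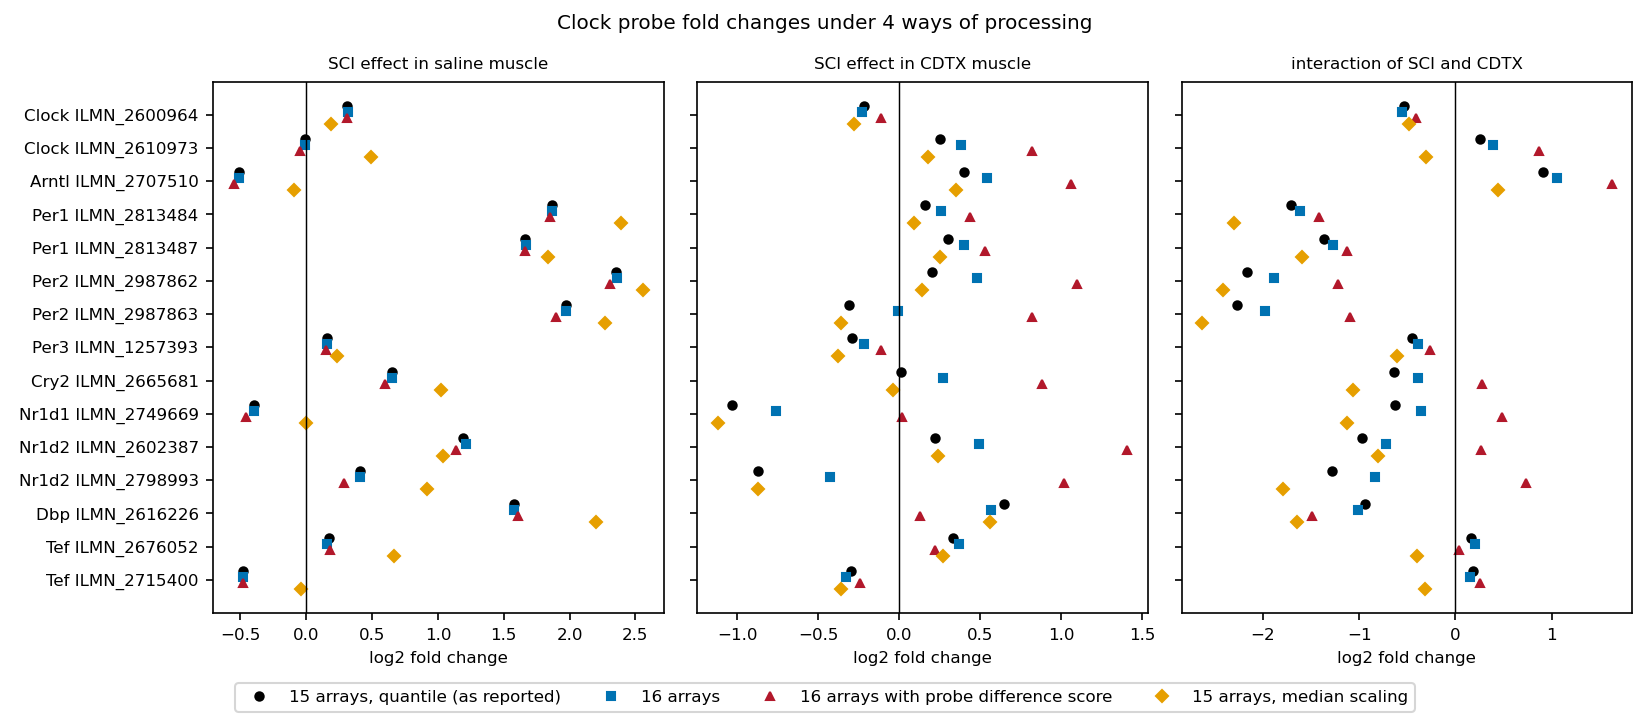
Log2 fold change of the 15 kept clock probes in 3 comparisons (panels) under 4 ways of processing (marker shapes and colours). In the left panel the Per1, Per2 and Dbp markers stay above 1, and in the middle and right panels the triangles of the score fit lie apart, with Nr1d2 ILMN_2798993 moving from -0.87 to 1.02 and from -1.28 to 0.73.

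The authors' deposited table of group means, made with another normalization and background subtraction, was read for the same probes. Over the 15 kept probes in 5 comparisons, 37 of 75 log2 fold changes from the authors' deposited table differed from the limma values in sign or by at least the replicate SD, and 38 did not. In the authors' deposited table Per1 ILMN_2813484 averaged an intensity of 60.8 in Sham+Saline, 335.7 in SCI+Saline, 314.7 in the Sham+CDTX group, and 351 in SCI+CDTX, so its small CDTX effect in SCI mice had the other sign there (0.06). The authors' deposited table gives Per2 ILMN_2987863 as 27.5, 166.2, 120 and 96.1 in the same order, and Dbp as 860, 2865.1, 1167.5 and 1913.1. Nr1d1 was 98.9, 72.1, 94.2 and 37.5 in the authors' deposited table, again lowest in SCI+CDTX, but its CDTX effect in sham mice was -0.07 there against the called -0.59. Cry2 was 40.1, 80.9, 48.8 and 50.4 in the authors' deposited table, so its CDTX effect in sham mice, not called in limma, also had the other sign (0.28). Signs further differed in the authors' deposited table for 2 values near 0, that of Per3 for CDTX in SCI mice (0.02) and that of Clock ILMN_2610973 for SCI in saline muscle (0.09). For Tef ILMN_2715400 the authors' deposited table lists 186.7 and 139.6 with saline and 64.4 and 51.4 with CDTX, for sham and SCI mice in turn.

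Other genes of the clock were read from a list of 15, of which 8 had a kept probe, each taken by its brightest. For SCI in saline muscle 1 of the 8 was higher and the others were not called (4 were higher with median scaling). The share of all probes called higher in that comparison was 14.8%, and with median scaling 86.4% of all calls were higher. The gene called was Ciart, which encodes a repressor of CLOCK and BMAL1 and is listed as Gm129, at 2.14 (SE 0.18, adjusted p 6.76e-08). Ciart averaged 4.89 ± 0.21 in Sham+Saline and 7.03 ± 0.25 in SCI+Saline (SD, n = 4 each). With CDTX it averaged 4.94 ± 0.12 in sham mice (n = 4) and 5.49 ± 0.43 in SCI mice (n = 3). Ciart was thus high in SCI+Saline and, by contrast with its SCI effect, had a CDTX effect in sham mice of 0.06 (adjusted p 0.811). For CDTX in SCI mice 3 of the 8 were lower (Ciart -1.54, Rora -0.78 and Btrc -0.57) and 2 higher (Timeless 0.87 and Csnk1d 0.4), against 22.5% and 20.4% of all probes. For CDTX in sham mice 2 were lower (Csnk1d -0.93 and Csnk1e -0.73) and 1 higher (Timeless 0.38), against 25.8% and 23.1% of all probes, while with median scaling 2 were higher and the others were not called. For SCI in CDTX muscle 2 were higher (Csnk1d 0.97 and Ciart 0.54) and 1 lower (Btrc -0.83), against 14.9% in each direction. With 8 genes in the list, no count of 1 to 3 is read as different from these shares.

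Of 10 genes known as clock outputs, 9 were kept. For CDTX in SCI mice 3 were lower and 1 higher, against 22.5% and 20.4% of all probes, led by Usp2, a deubiquitinase gene, at -1.26 (SE 0.21, adjusted p 9.45e-05). For CDTX in sham mice 2 were lower and 1 higher (1 and 4 with median scaling), against 25.8% and 23.1%. For SCI in saline muscle 2 were higher and 1 lower (5 higher with median scaling), against 14.8% and 14.6%, and the largest rise was that of Myod1, the myogenic transcription factor, at 2.62 (SE 0.23, adjusted p 1.67e-07). In the interaction 2 of the 9 were higher and 2 lower (1 and 3 with median scaling), against 12% and 11.6% of all probes. Lower were Usp2 at -1.72 (SE 0.28, adjusted p 0.000262) and Myod1 at -2.69 (SE 0.34, adjusted p 3.31e-05). Higher were Alas1 at 1.29 (SE 0.23, adjusted p 0.000468) and Por at 0.87 (SE 0.29, adjusted p 0.0378). The medians of the 9 were -0.47 for CDTX in SCI mice, 0.08 for CDTX in sham mice, 0.38 for SCI in saline muscle and -0.52 in the interaction.

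Some genes that glucocorticoids induce were higher in SCI+Saline than in Sham+Saline. Of 7 such genes with a kept probe, 5 were higher for SCI in saline muscle against 14.8% of all probes (6 were higher with median scaling), led by the metallothioneins Mt1 (3.49, SE 0.15, adjusted p 1.07e-11) and Mt2 (3.35, SE 0.24, adjusted p 1.34e-08), which metals and inflammation also induce. The genes not called were Fkbp5 (0.36, adjusted p 0.189) and Klf9 (-0.3, adjusted p 0.512). For CDTX in sham mice 3 of the 7 were higher (23.1% of all probes), for CDTX in SCI mice 2 were lower (22.5%), and for SCI in CDTX muscle 4 were higher and 1 lower (14.9% each). The combined level of the 7 was 9.88 to 10.27 in Sham+Saline, 11.59 to 11.74 in SCI+Saline, 10.79 to 10.97 in the Sham+CDTX group, and 11.51 to 11.79 in SCI+CDTX. This is the log2 of a mean intensity, in which Mt1 differed most among the bright members, from 10.23 ± 0.21 in Sham+Saline to 13.72 ± 0.23 in SCI+Saline (SD, n = 4 each). The other bright members, Sgk1, Tsc22d3 and Klf9, which were picked out after their values were seen, differed less between these groups (11.48 and 11.95, 10.89 and 11.88, and 10.6 and 10.3). Their part in the clock values was not tested.

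Markers of infiltrating cells differed between the groups as well. All 7 monocyte and macrophage markers were higher with CDTX in both kinds of mice (23.1% of all probes in sham and 20.4% in SCI mice), and their combined level was 10.65 to 11.2 in the CDTX groups and 6.71 to 8.98 in the saline groups, with 5 to 7 of the 7 detected on each array. Fibroblast markers were higher on 5 of 5 genes with CDTX in sham mice and on 3 of 5 in SCI mice (23.1% and 20.4% of all probes). For SCI, 2 of the 5 were lower in saline muscle (14.6% of all probes) and 2 in CDTX muscle (14.9%), or 0 and 1 with median scaling. Their combined levels were 10.13 to 11.32 in Sham+Saline, 10.35 to 11.01 in SCI+Saline, 11.51 to 11.77 in the Sham+CDTX group, and 10.7 to 10.93 in SCI+CDTX. Neutrophil markers (5 measured) had combined levels of 4.93 to 5.32 on 3 Sham+Saline arrays and 11.04 on Sham+Saline 4, and of 8.65 to 11.26 in SCI+Saline, 7.02 to 7.58 in the Sham+CDTX group, and 9.27 to 10.01 in SCI+CDTX. Sham+Saline 4 also had the lowest Dbp (8.94) and Cry2 (5.77) of its group, and SCI+Saline 4, with the highest neutrophil level, had the highest Per1 (9.2 and 7.53) and the lowest Arntl (6.57) of its group. Dbp, Cry2, Per1 and Arntl did not move alike on both arrays. SCI+Saline 4 had the highest Dbp (11.72) of its group and a Cry2 level of 6.91, inside the group range. Per1 (6.65 and 5.2) and Arntl (7.62) on Sham+Saline 4 lay inside the range of its group. Other probes did move alike on Sham+Saline 4 and SCI+Saline 4. Per2 ILMN_2987863 was the highest of its group on both (5.98 and 7.97). Nr1d2 ILMN_2602387, not detected in Sham+Saline, was the lowest on both (4.39 and 5.15). The other kept probes of Per2 and Nr1d2 were not at the same end on both. The 7 calls higher for SCI in saline muscle were kept without either array. In whole muscle fewer cells of a type and less RNA per cell cannot be told apart, and the part of cell makeup in the clock values was not tested.

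The genes whose mean-centred level over the 15 arrays was closest to that of Dbp were Orm2, Ctsd, Psmb5, Cirbp and Elmo3, with root mean square differences of 0.384 to 0.396 log2 units against a median of 0.853 over 10926 genes. Closest to Arntl were Gcdh, Lcmt1, 9330134C04Rik, Coq5 and Ccdc21, at 0.168 to 0.204 against a median of 0.678. Like Arntl, these 5 were highest in Sham+Saline, for example Coq5 at 10.91, 10.31 in SCI+Saline, 9.25 in the Sham+CDTX group, and 9.59 in SCI+CDTX. This likeness follows from how the 5 were picked.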

How the data were processed

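Mean bead intensities of 25697 probes on 16 arrays, without normalization or background subtraction, were deposited, together with each probe's detection p-value and bead number, per the file headers. GenomeStudio 2011.1 is named in the submitters' processing notes. The authors also deposited normalized intensity means per group. No column of per-sample values was left unused (0 columns). The intensities of 15 arrays were background-corrected from the detection p-values (normal-exponential model, offset 16), quantile normalized and set to log2 in limma 3.58.1 under R 4.3.3. The fit kept probes that 3 or more arrays detected (p under 0.05). A model of 4 group means was fitted with lmFit, contrasts.fit and eBayes, and adjusted p-values are Benjamini-Hochberg over all 14763 kept probes of a comparison. The offset understates fold changes of dim probes. Identical arrays numbered 0, and the highest correlation between arrays was 0.994. The fit was tested on simulated data.

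All probes of the 10 genes are named. Of the other clock genes any kept gene may be named, of the output and glucocorticoid lists at most the 2 called genes with the largest change in each direction of a comparison. Fkbp5, Klf9, Sgk1 and Tsc22d3 of the glucocorticoid list are named outside this rule. Of the list of other clock genes, 1 gene is not reported here. The members, lists and naming rule were chosen with earlier results of these data known. The genome build of the array annotation is not given in the sources used here, so probes are placed by chromosome or band and transcript base only. The alternatives were all 16 arrays, all 16 with the probe difference score, median scaling, no background correction, no detection filter, a stricter filter (p under 0.01 on all arrays of some group), only the groups compared, the replicate number as a block, each slide separately, the authors' table, and each array left out in turn.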

Additional observations from a re-analysis of the deposited data

Results flagged for a closer look

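In groups of 4 arrays, 45 sets of levels were searched for an array far from the others, and chance alone marks about 1 in 20. Arntl was at 6.57 on SCI+Saline 4, with the nearest other array of the group at 7.35. Per2 ILMN_2987863 was at 4.98 on Sham+Saline 2, with the nearest at 5.85. The CDTX effect differed between SCI and sham mice, by the interaction in limma, for 7 clock probes. The effect in SCI mice minus that in sham mice was 0.91 for Arntl, -1.36 and -1.71 for Per1, -2.16 and -2.27 for Per2, and -1.28 and -0.97 for Nr1d2 ILMN_2798993 and ILMN_2602387. These 7 calls, other than that of Arntl, were lost in the fit of 16 arrays with the probe difference score, and that of Arntl was lost with median scaling (0.44, adjusted p 0.204). The score largely coincides with the Sham+CDTX group, so the score fit cannot decide whether these calls hold.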

How the results depend on the processing

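Counts of clock probes called stayed within 1.5 times the reported ones, apart from 3 cases. With all 16 arrays, CDTX in SCI mice gave 4 calls in place of 7 and SCI in CDTX muscle gave 0 in place of 2. With the probe difference score the interaction gave 1 in place of 7. Leaving out each array in turn gave 5 to 10 calls for CDTX in SCI mice, 7 to 9 for CDTX in sham mice, 2 to 3 for SCI in CDTX muscle, 7 to 9 for SCI in saline muscle and 7 to 9 for the interaction. Over all probes, the 16 arrays gave 2613 calls for SCI in CDTX muscle in place of 4393 and 1532 for the interaction in place of 3483. The score fit gave 4598 for CDTX in sham mice in place of 7219, 506 for SCI in CDTX muscle and 104 for the interaction. Median scaling moved the share of calls that were higher from 47.3% to 85.1% (CDTX in sham mice), 50.3% to 86.4% (SCI in saline muscle), 51% to 17.7% (interaction) and 47.6% to 64.9% (CDTX in SCI mice), and from 49.9% to 44.9% for SCI in CDTX muscle. The median of all probes in the interaction moved to -0.24.

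Signs turned in the score fit for Nr1d2 ILMN_2798993 (CDTX in sham mice -1.61, called at an adjusted p of 0.00831, SCI in CDTX muscle 1.02, interaction 0.73), Nr1d2 ILMN_2602387 (CDTX in sham mice -0.77, interaction 0.27), Nr1d1 (SCI in CDTX muscle 0.02, interaction 0.48), Per2 ILMN_2987863 (SCI in CDTX muscle 0.82) and Cry2 (interaction 0.28). They turned with median scaling for Per1 ILMN_2813484 (CDTX in SCI mice 0.06), Clock ILMN_2610973 (CDTX in sham mice 0.1, SCI in saline muscle 0.49, interaction -0.31), Cry2 (CDTX in sham mice 0.4, SCI in CDTX muscle -0.04), Nr1d1 (CDTX in sham mice 0.25) and Tef ILMN_2715400 and ILMN_2676052 (interaction -0.32 and -0.4). Because the score largely coincides with the Sham+CDTX group, the sign turns in the score fit do not separate score from group. The cause was not tested. Leaving out 1 array turned the sign of 7 values near 0, none of them called: Per1 ILMN_2813484, CDTX in SCI mice (-0.26 to 0.15), Nr1d2 ILMN_2798993, CDTX in sham mice (-0.01 to 0.41), Cry2, SCI in CDTX muscle (-0.16 to 0.14), Clock ILMN_2610973 (-0.14 to 0.11) and Per3 (-0.02 to 0.29), SCI in saline muscle, and Tef ILMN_2715400 (-0.12 to 0.37) and ILMN_2676052 (-0.07 to 0.45), interaction.

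The labels do not say that a replicate number marks paired mice, and same-numbered arrays deviated together at r of -0.27 to 0.38, so the numbers were not taken to pair the samples. With the replicate number as a block, 7, 9, 2, 9 and 7 clock probes were called for CDTX in SCI mice, CDTX in sham mice, SCI in CDTX muscle, SCI in saline muscle and the interaction. Slide as a block could not be fitted. Beads per probe averaged 33.3 to 38.9 on an array, and the number of arrays limits the precision.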
